A study of Mus musculus with 3 samples.

Results

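Transcripts of 7 chemokine receptor genes, Ccr1, Ccr2, Ccr7, Cxcr2, Cxcr3, Cxcr4 and Cxcr6, were measured in single cells of mouse brain and described across immune cells and glia. The members were chosen by their symbols, and each symbol named 1 of the 31053 genes of the deposited count matrix. The brains came from mice of 10 weeks in 3 groups, labelled control, ischemic stroke (IS) and hemorrhagic stroke (HS), of the strain written as C56BL6, with 1 library per group. Per the study's methods, brains of several mice were taken in each group, ischemia was made by occlusion of the middle cerebral artery and hemorrhage by injection of collagenase into the striatum. The 3 libraries were deposited as 1 matrix in which a barcode ends in the suffix 1, 2 or 3, and no source used here names the group of a suffix. The libraries are therefore named by their suffix, and no comparison between control and stroke was made.

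Chemokine receptors are G protein-coupled receptors that steer leukocytes along gradients of small secreted proteins, the chemokines. Ccr1 and Ccr2 bind inflammatory CC chemokines, Cxcr2 binds the CXC chemokines that draw neutrophils, and Cxcr3 binds the interferon-induced ligands Cxcl9 and Cxcl10. Ccr7 guides naive and central memory lymphocytes and maturing dendritic cells to lymph nodes, Cxcr4 binds Cxcl12 and holds leukocytes in bone marrow and other niches, and Cxcr6 binds Cxcl16 and is known for T cells that stay in tissues.

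Cells were assigned to 13 classes by raw marker counts (unique molecular identifiers, UMIs), and no chemokine receptor was among the gate markers. Of 35968 barcodes, 31982 held at least 1000 UMIs and at most 30% mitochondrial counts, with a median of 6147 UMIs. The immune classes were T cells (at least 2 UMIs of Cd3d, Cd3e and Cd3g, 2506 cells), NK cells (Ncr1 and Klre1, 325), neutrophils (at least 1% of UMIs from S100a8 and S100a9, 298), microglia (at least 0.5% from the C1q genes, 10901), border-associated macrophages (285), monocytes (35), dendritic cells (62) and B cells (40). Several markers outside the gates were looked at per class, and 1 of each is given here: the T-cell receptor gene Trbc2 was found in 94.5% of T cells, Klrb1c in 78.2% of NK cells, Csf3r in 90.6% of neutrophils, P2ry12 in 74.3% of microglia, Ms4a7 in 78.6% of border-associated macrophages, Ly6c2 in 65.7% of monocytes and Cd79b in 82.5% of B cells. Not every such marker was frequent. Ly6g, a neutrophil marker, was found in 8.84%, 7.41% and 58.6% of the neutrophils of suffixes 1, 2 and 3. The dendritic gate was less clean, since H2-Aa, an MHC class II gene, was absent from 17 of its 62 cells. Another 4432 barcodes passed more than 1 gate and 1946 passed none, and both were left out of every class. Libraries differed in makeup: suffix 3 held 22 of the T cells, 5 of the NK cells, 29 of the neutrophils and 1014 of 1040 endothelial cells. Of the barcode sequences, 43 occurred in both suffix 1 and suffix 2, 24 in suffix 1 and suffix 3, and 43 in suffix 2 and suffix 3.

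The members lie on 4 chromosomes in the annotation of build GRCm38. Cxcr6 (ENSMUSG00000048521, chr9:123806475-123811760, plus strand), Ccr1 (ENSMUSG00000025804, chr9:123962124-123968692, minus strand) and Ccr2 (ENSMUSG00000049103, chr9:124101950-124113557, plus strand) lie near each other, with 150 kb between Cxcr6 and Ccr1 and 133 kb between Ccr1 and Ccr2, and near Ccr9, Xcr1 and Ccr3. Cxcr2 (ENSMUSG00000026180, chr1:74153989-74161246, plus strand) and Cxcr4 (ENSMUSG00000045382, chr1:128588199-128592293, minus strand) are on chromosome 1. Ccr7 (ENSMUSG00000037944, chr11:99144196-99155077, minus strand) and Cxcr3 (ENSMUSG00000050232, chrX:101731535-101734269, minus strand) stand alone on chromosomes 11 and X. Cxcr6 overlaps Fyco1, and the other 6 members overlap no annotated gene.

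The sequences just before the transcription start are shown for Ccr1, Cxcr2 and Cxcr4, the 3 members found in most neutrophils, and for Cxcr6, the member found in the most T cells, from RefSeq on GRCm38.p6 (bases 250 to 6 before the RefSeq start, 5′ to 3′ on the strand of the gene). RefSeq windows were found for 6 of the 7 members, and those of Ccr2 and Cxcr3 ran more than 100 bases into the annotated gene and were not used. Capitals mark a match, on either strand, to GAGGAA, the core of the motif of the myeloid factor Spi1, or to TGTGGT, the core of the RUNX motif.
Ccr1 (chr9:123968698-123968942, minus strand): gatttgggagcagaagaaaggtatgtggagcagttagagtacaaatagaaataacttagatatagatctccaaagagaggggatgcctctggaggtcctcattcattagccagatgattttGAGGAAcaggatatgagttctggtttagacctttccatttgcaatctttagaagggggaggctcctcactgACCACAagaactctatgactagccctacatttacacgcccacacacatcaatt
Cxcr2 (chr1:74153744-74153988, plus strand): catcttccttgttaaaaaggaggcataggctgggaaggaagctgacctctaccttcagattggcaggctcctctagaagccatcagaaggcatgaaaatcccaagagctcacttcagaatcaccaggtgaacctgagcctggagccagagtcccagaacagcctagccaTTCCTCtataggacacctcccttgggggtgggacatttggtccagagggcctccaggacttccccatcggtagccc
Cxcr4 (chr1:128592305-128592549, minus strand): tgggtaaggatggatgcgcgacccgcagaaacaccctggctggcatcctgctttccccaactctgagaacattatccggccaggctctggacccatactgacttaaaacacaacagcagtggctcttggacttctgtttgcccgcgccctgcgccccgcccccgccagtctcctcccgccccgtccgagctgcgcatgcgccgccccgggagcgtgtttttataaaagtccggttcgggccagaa
Cxcr6 (chr9:123806227-123806471, plus strand): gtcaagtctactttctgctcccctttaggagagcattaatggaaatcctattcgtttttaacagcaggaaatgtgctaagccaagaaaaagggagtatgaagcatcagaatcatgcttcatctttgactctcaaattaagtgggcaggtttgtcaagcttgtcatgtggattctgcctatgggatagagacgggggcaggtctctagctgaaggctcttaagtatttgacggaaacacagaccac
GAGGAA matched once in the windows of Ccr1 and Cxcr2 and was not in those of Cxcr4 and Cxcr6, and 22.7% of 32851 RefSeq windows of this length held it. TGTGGT matched once in the window of Ccr1 and in none of the other 3, and 13.9% of all windows held it. These are letter matches in a short window, and no binding was measured.

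Classes differed in their receptors, with some members shared between them. Neutrophils held Ccr1, Cxcr2 and Cxcr4, T cells held Cxcr6, Cxcr4, Cxcr3 and Ccr2, NK cells held Ccr2 and Cxcr4, dendritic cells and B cells were highest in Ccr7, and microglia held mainly Cxcr4. With detection set at 10% of a class's cells or more, 4 of 7 members were found in T cells, against 13.1% of all 31053 genes. In NK cells 2 of 7 members passed this limit, against 14.4% of all genes. In neutrophils it was 3 of 7 against 8.93%, in microglia 1 of 7 against 17.6% and in oligodendrocytes 0 of 7 against 18.1%. Monocytes and dendritic cells had the same 4 members at this limit, Ccr1, Ccr2, Ccr7 and Cxcr4, against 5474 and 5313 of the 31053 genes. Over the 5 non-immune classes together, 11152 cells, each member stood at 0.131 to 2.33 CPM (the UMIs of the gene per 1000000 UMIs of the class), against 5.54 to 43.9 CPM over the 14452 immune cells. Levels are given as CPM with the exact Poisson 95% interval and as the share of cells with a UMI, with the exact binomial (Clopper-Pearson) 95% interval, and both intervals cover counting error only. The share in oligodendrocytes is given beside them as a reference for free RNA, which was not itself measured. It is pooled over libraries, and 3323 of the 8058 oligodendrocytes were of suffix 3, which held 22 of the T cells. Without suffix 3 it was 0.211% in place of 0.149% for Cxcr6, and 0.211% in place of 0.124% for Ccr7.

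**Figure D1:**
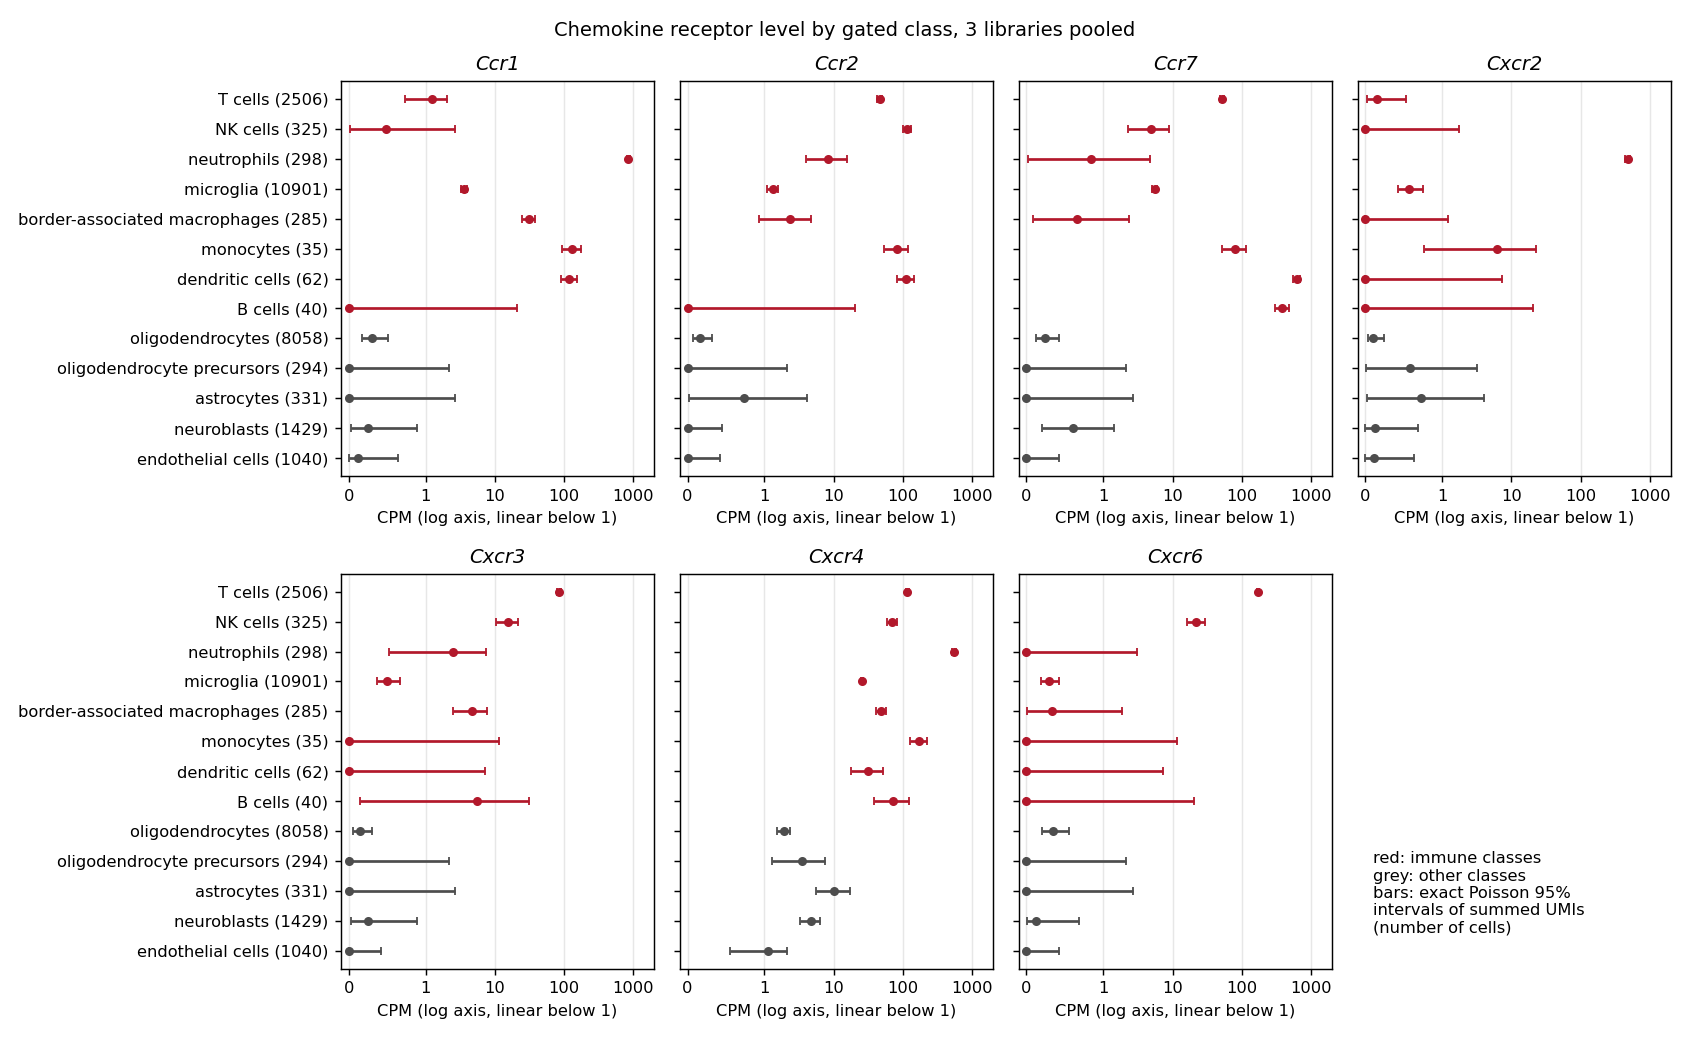
Level of each receptor (CPM, log axis that is linear below 1) in 13 gated classes, with the 3 libraries pooled; points are CPM of summed UMIs, bars are exact Poisson 95% intervals, and the number of cells stands beside each class. Ccr1, Cxcr2 and Cxcr4 peak in neutrophils (850.1, 479 and 551 CPM), Cxcr3 and Cxcr6 in T cells (84.1 and 170.5 CPM), Ccr7 in dendritic cells (626 CPM), and Ccr2 in NK cells (115 CPM) with dendritic cells (109.9 CPM) inside its interval.

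Neutrophils, the phagocytes that enter injured tissue early, had the highest level of 3 receptors. Ccr1 stood at 850.1 CPM (799 to 904) and had a UMI in 86.6% of neutrophils (82.2 to 90.2, n = 298), against 0.174% of oligodendrocytes. Median depth was 2986 UMIs in neutrophils and 5782 in oligodendrocytes, so the share was higher in the shallower cells. Monocytes (129 CPM, 92.8 to 175) and dendritic cells (118 CPM, 89.8 to 152) came next for Ccr1, with intervals that overlapped, and border-associated macrophages (30.99 CPM, 25.1 to 37.9; 15.0 CPM without suffix 3) followed below both. Microglia stood at 3.57 CPM (3.19 to 3.97), with a Ccr1 UMI in 2.07% of cells. Ccr1 was thus highest in neutrophils and lowest, among the myeloid classes, in microglia.

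Cxcr2, the receptor for the neutrophil-attracting ligands Cxcl1 and Cxcl2, was close to restricted to neutrophils. It stood at 479 CPM (440 to 519) there, with a UMI in 66.8% of cells (61.1 to 72.1), and at 0.571 CPM (0.428 to 0.747) in microglia. Monocytes held 2 Cxcr2 UMIs in 35 cells, and NK cells, border-associated macrophages, dendritic cells and B cells held none. A count of 0 in 325 NK cells allows a share of up to 0.923%, and in 40 B cells one of up to 7.50%. Of all Cxcr2 UMIs in the kept barcodes, 69.4% were in neutrophils, 15.9% in barcodes that passed more than 1 gate and 6.43% in microglia.

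Cxcr4 was the most widely spread member. Its order was neutrophils (551 CPM, 509 to 594), monocytes (170 CPM, 128 to 222), T cells (116 CPM, 110 to 122), B cells (72.8 CPM, 38.7 to 124), NK cells (68.8 CPM, 58.0 to 81.0), border-associated macrophages (48.1 CPM, 40.7 to 56.6), dendritic cells (31.4 CPM, 17.9 to 51.0) and microglia (25.8 CPM, 24.7 to 26.8). Neighbours in this order overlapped between T cells and B cells, B cells and NK cells, border-associated macrophages and dendritic cells, and dendritic cells and microglia. Without suffix 2 the level in B cells was 145 CPM (58.2 to 298), from 7 UMIs. Among the other classes, astrocytes (10.2 CPM, 5.59 to 17.1) and neuroblasts (4.64 CPM, 3.28 to 6.37) stood above oligodendrocytes (1.89 CPM, 1.52 to 2.32). After each cell was thinned to 1000 UMIs, a Cxcr4 UMI was found in 37.9% of neutrophils, 7 of 35 monocytes, 11.0% of T cells, 8.62% of NK cells, 1.77% of microglia and 0.211% of oligodendrocytes.

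The 3 neutrophil receptors differed between libraries. Ccr1 stood at 1058 CPM (987 to 1134) in the 215 neutrophils of suffix 1, at 681 CPM (556 to 827) in the 54 of suffix 2 and at 362 CPM (294 to 440) in the 29 of suffix 3. Cxcr2 stood at 566, 554 and 195 CPM, and Cxcr4 at 716, 468 and 134 CPM, in the same order of suffixes. Suffix 3 was lowest for each of them, and for Ccr1 and Cxcr4 the intervals of the 3 libraries did not overlap at all. The share of cells with a UMI, which rises with depth, ran in another order: 90.2%, 70.4% and 89.7% for Ccr1, 67.0%, 63.0% and 72.4% for Cxcr2, and 76.3%, 27 of 54 cells and 58.6% for Cxcr4. With each cell thinned to 1000 UMIs, Ccr1 was found in 135 of 215, 26 of 54 and 9 of 29 cells, Cxcr2 in 77, 19 and 1, and Cxcr4 in 91, 16 and 6. Suffix 3 thus had the lowest share of each receptor at equal depth as well. Intervals of these thinned shares were not computed, so whether they stood apart beyond counting error was not assessed. Without suffix 1 the pooled levels were 474 CPM for Ccr1 and 251 CPM for Cxcr4.

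The neutrophils of suffix 3 also differed in other genes. Their median depth was 7693 UMIs, against 2975 in suffix 1 and 2422 in suffix 2. Ngp, a granule protein made by immature neutrophils, had a UMI in 55.2% of them (35.7 to 73.6), against 0.930% and 5.56% in suffix 1 and suffix 2. Mmp8, a granule collagenase, was found in 82.8%, against 10.2% and 3.70%, and Ly6g in 58.6%, against 8.84% and 7.41%. These genes were chosen after their values were seen, and their part in the receptor levels was not tested. Ccr2 was found in 3 of the 29 neutrophils of suffix 3 and in 0 of the other 269.

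**Figure D2:**
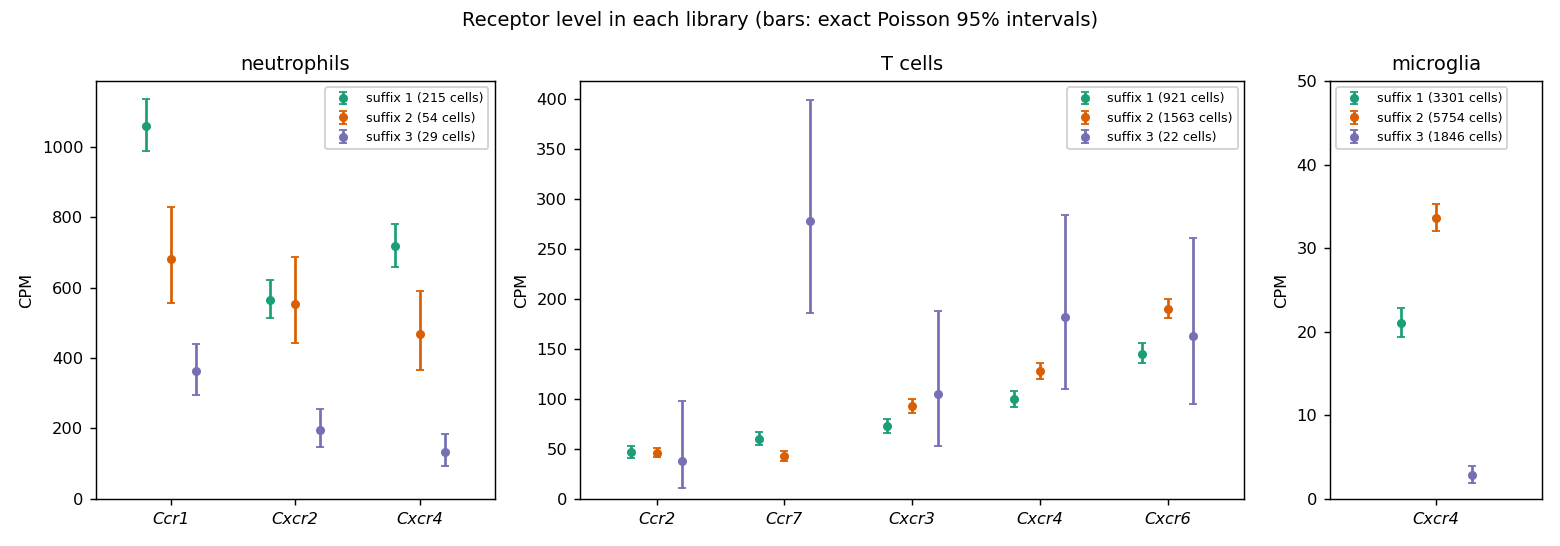
Receptor level (CPM, linear axes from 0) in the neutrophils, T cells and microglia of each library, named by barcode suffix; bars are exact Poisson 95% intervals. Neutrophils of suffix 3 are lowest in Ccr1, Cxcr2 and Cxcr4 (362, 195 and 134 CPM), T cells of suffix 2 exceed those of suffix 1 in Cxcr3, Cxcr4 and Cxcr6, and microglia of suffix 3 hold 2.81 CPM of Cxcr4.

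Within neutrophils, thinned to 1000 UMIs each, the receptors were compared cell by cell. Cxcr2 had a UMI in 40.0% (32.6 to 47.8) of the 170 cells with Ccr1 and in 22.7% (15.7 to 30.9) of the 128 without. Camp, a granule peptide, was found in 0 of the 170 cells with Ccr1 and in 5.47% of the 128 without. Mmp8 was found in 1.77% (0.215 to 6.25) of the 113 cells with Cxcr4 and in 11.4% (7.17 to 16.8) of the 185 without. Il1b, the gene of interleukin-1 beta, was found in 99.0% of the 97 cells with Cxcr2 and in 89.6% of the 201 without. Over the 27 pairs of a receptor with another receptor or a state gene, counted in each direction, the intervals overlapped in 22. The other 5 contrasts did not hold beyond counting error within any library. Without suffix 3, whose neutrophils were low in the receptors and high in Mmp8, none of the 27 pairs stood apart, and none did within suffix 1, suffix 2 or suffix 3 alone. Without suffix 3, Cxcr2 was found in 41.6% (33.9 to 49.6) of cells with Ccr1 and 26.9% (18.8 to 36.2) of those without, and Mmp8 in 1.87% (0.227 to 6.59) of cells with Cxcr4 and 3.70% (1.37 to 7.89) of those without.

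T cells were the main holders of Cxcr6 and Cxcr3. Cxcr6 stood at 170.5 CPM (164 to 177), with a UMI in 43.3% of T cells (41.3 to 45.2, n = 2506), against 22.1 CPM (16.2 to 29.5; 48.9 CPM without suffix 1 and 13.3 CPM without suffix 2) in NK cells and 0.349 CPM in oligodendrocytes. Of all Cxcr6 UMIs, 80.8% were in T cells. No Cxcr6 UMI was found in the 298 neutrophils, which allows a share of up to 1.01%. In microglia the share of 0.220% (0.141 to 0.327) overlapped that of oligodendrocytes (0.0770 to 0.260), and the source of these UMIs was not tested. Without suffix 3 the shares were 0.265% in microglia and 0.211% in oligodendrocytes.

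Cxcr3 was also highest in T cells and next in NK cells. It stood at 84.1 CPM (79.3 to 89.1) in T cells, with a UMI in 30.7% of cells (28.9 to 32.5), and at 15.4 CPM (10.5 to 21.7) in NK cells. Border-associated macrophages held a Cxcr3 UMI in 4.91% of 285 cells (2.71 to 8.11), above the 0.0869% of oligodendrocytes. Those cells were split as 1.67%, 4.41% and 6.37% over suffixes 1, 2 and 3. Microglia, the brain's parenchymal macrophages, stood at 0.404%.

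Ccr2, the receptor for Ccl2 that monocytes are known to use, was shared by lymphoid and myeloid classes. NK cells (114.5 CPM, 100.4 to 130) and dendritic cells (109.9 CPM, 83.0 to 143) did not differ beyond counting error, nor did dendritic cells and monocytes (82.0 CPM, 53.6 to 120). In the 45 dendritic cells with H2-Aa, a set chosen after the values were seen, Ccr2 stood at 137 CPM (103 to 178.5). That interval also overlapped the one of NK cells, so which of these classes was highest depended on the dendritic gate. T cells followed at 46.4 CPM (42.8 to 50.1). The place of monocytes depended on the library: the 20 monocytes of suffix 2 stood at 35.2 CPM (12.9 to 76.5), and without them the level was 137 CPM (83.4 to 211) in 15 cells. The share of cells with a Ccr2 UMI was 42.2% in NK cells, 35.5% in dendritic cells, 31.4% in monocytes and 16.4% in T cells, against 0.871% in microglia and 0.0869% in oligodendrocytes. Thinned to 1000 UMIs, the shares were 10.5% in NK cells and 5.23% in T cells. NK cells of suffix 1 (114 CPM, 224 cells) and suffix 2 (121 CPM, 96 cells) were alike within counting error.

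Of all Ccr7 UMIs, 36.9% were in T cells and 26.9% in microglia, against 16.7% in dendritic cells and 3.6% in B cells. The level of Ccr7, however, was highest in the rarer cells. It stood at 626 CPM (559 to 698) in dendritic cells and 386 CPM (301 to 489) in B cells, which did not overlap, and then at 78.9 CPM (51.0 to 116) in monocytes and 52.1 CPM (48.4 to 56.1) in T cells, which did. Neither order was stable. Without suffix 2, B cells stood at 683 CPM (470.1 to 959, 17 cells) and dendritic cells at 414 CPM (347 to 490.1, 36 cells), so the order turned and the intervals overlapped, and without Fscn1 in the dendritic gate the dendritic level of 454 CPM (389 to 527) overlapped that of B cells. Of the 25 Ccr7 UMIs in monocytes, 23 lay in 4 cells of suffix 2. Without suffix 2 monocytes stood at 13.7 CPM (1.65 to 49.3), and with stricter gates their 41 cells held no Ccr7 UMI. A Ccr7 UMI was found in 62.5% of B cells (45.8 to 77.3), 35.5% of dendritic cells (23.7 to 48.7) and 9.06% of T cells (7.96 to 10.2). NK cells (2.15%) and microglia (2.09%) were lower, and oligodendrocytes stood at 0.124%.

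The dendritic class was split by its own gate genes, a split made after the values were seen. In the 38 cells led by Flt3, Cd209a and Clec9a, markers of conventional dendritic cells, Ccr1 was found in 73.7% (56.9 to 86.6), Ccr2 in 55.3% (38.3 to 71.4) and Ccr7 in 34.2% (19.6 to 51.4). In the 24 cells led by Fscn1 and Ccl22, markers of migratory dendritic cells, Ccr1 was found in 0 cells and Ccr2 in 1. Of these 24 cells, only 7 held H2-Aa, and all 7 held Ccr7, at 5213 CPM (4582 to 5906), with neither Ccr1 nor Ccr2. The high level of Ccr7 thus lay in these 7 cells, where a count of 0 allows a share of up to 42.9%. Ccr1 and Ccr2 were frequent in the 38 cells, which also held Ccr7, at 158 CPM (119.5 to 205.5). Whether the receptors shared cells among those 38 was not counted.

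T cells were then divided by Cd8a and Cd8b1, Cd4 and Trdc, the constant gene of the gamma-delta receptor. There were 1429 CD8 T cells, 226 CD4 T cells, 129 gamma-delta T cells, 4 regulatory T cells and 708 cells with none of these UMIs. Ccr2 was found in 35.7% (27.4 to 44.6) of gamma-delta T cells, 22.1% (16.9 to 28.1) of CD4 T cells and 15.1% (13.2 to 17.0) of CD8 T cells. Cxcr3 ran the other way, with 10.9% (6.06 to 17.5) of gamma-delta T cells against 37.6% (31.3 to 44.3) of CD4 and 32.5% (30.1 to 35.0) of CD8 T cells. Gamma-delta T cells thus had more Ccr2 and less Cxcr3 than CD8 T cells, and both differences kept their direction within suffix 1 and suffix 2.

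In numbers, Ccr2 stood at 144 CPM (110.5 to 183) in gamma-delta and 27.9 CPM (22.2 to 34.5) in CD8 T cells of suffix 1, and at 137 CPM (89.3 to 200.4) and 41.8 CPM (36.4 to 47.8) in those of suffix 2. Cxcr3 stood at 26.9 CPM (13.9 to 47.0) and 71.7 CPM (62.5 to 81.9) in suffix 1, and at 21.0 CPM (5.73 to 53.9) and 89.9 CPM (81.9 to 98.5) in suffix 2. By CPM the same contrast was therefore seen in each of the larger libraries. By share of cells, Ccr2 in suffix 2 was found in 26.7% (14.6 to 41.9) of 45 gamma-delta and 16.2% (13.9 to 18.6) of CD8 T cells. These intervals overlapped, while the shares of Ccr2 in suffix 1 and of Cxcr3 in both libraries stood apart. Cxcr6 was found in similar shares of CD8 (47.6%), CD4 (47.8%) and gamma-delta T cells (49.6%), although its level was higher in gamma-delta T cells (299.8 CPM, 259 to 345) than in CD8 T cells (170.5 CPM, 162 to 180). Cxcr4 was found in 32.3% to 36.4% and Ccr7 in 6.98% to 11.1% of these 3 subsets, with overlapping intervals. The level of Cxcr4, however, was higher in gamma-delta T cells (156 CPM, 127 to 190) than in CD8 (108 CPM, 101 to 116) and CD4 T cells (103 CPM, 86.4 to 121.5). Within suffix 1 it stood at 164, 93.6 and 67.2 CPM in these subsets, with gamma-delta T cells apart from the others, while in suffix 2 it stood at 142, 117 and 156 CPM, with overlapping intervals. Ccr7 in gamma-delta T cells came mostly from suffix 1, and without it 1 of 46 cells held a Ccr7 UMI.

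**Figure D3:**
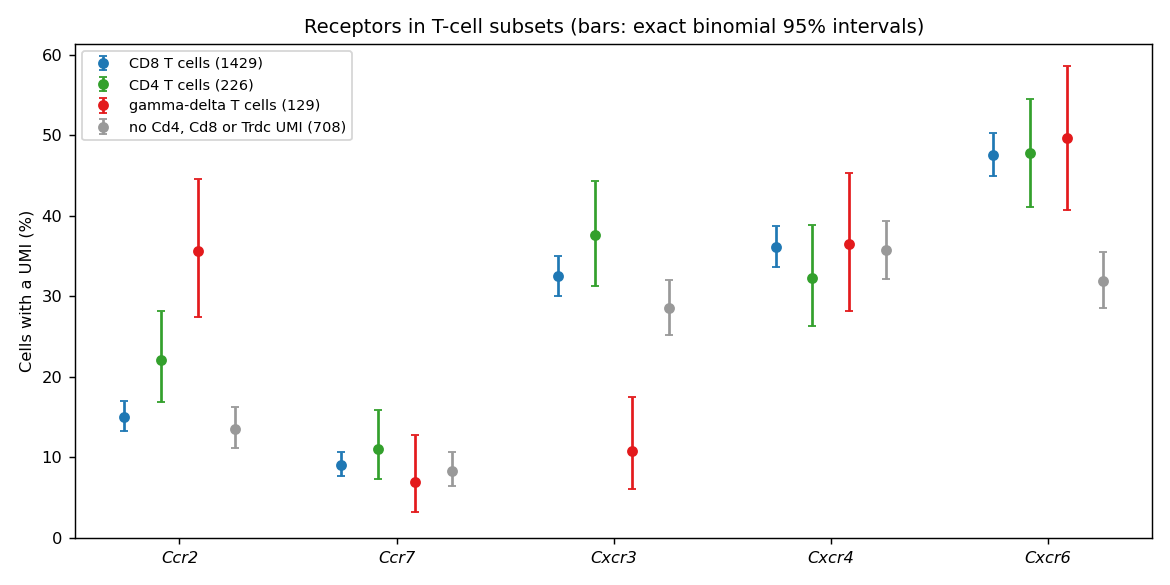
Share of cells with a UMI (percent) of 5 receptors in CD8, CD4 and gamma-delta T cells and in T cells with none of the subset markers; bars are exact binomial 95% intervals and the number of cells is in the key. Ccr2 is highest and Cxcr3 lowest in gamma-delta T cells (35.7% and 10.9%), and Cxcr6 is near 48% in both CD4 and CD8 T cells (47.8% and 47.6%).

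Between libraries, T cells of suffix 2 exceeded those of suffix 1 in Cxcr6 (190 CPM, 181 to 200.4, against 145 CPM, 136 to 156), Cxcr4 (128 against 99.5 CPM) and Cxcr3 (92.8 against 72.7 CPM). Ccr7 ran the other way, at 42.6 CPM (38.0 to 47.5) in suffix 2 and 60.3 CPM (54.2 to 66.8) in suffix 1. Ccr2, at 46.3 and 46.6 CPM, was alike in both over all T cells. Among CD8 T cells, however, it stood at 41.8 CPM (36.4 to 47.8) in suffix 2 and 27.9 CPM (22.2 to 34.5) in suffix 1, with intervals apart. In CD4 and in gamma-delta T cells the Ccr2 intervals of these libraries overlapped. The shares of cells, which rise with depth, did not all follow the levels. Without suffix 1 and without suffix 2, Cxcr4 was found in 35.4% and 36.1% of T cells, Cxcr6 in 44.5% and 41.15%, and Cxcr3 in 31.6% and 29.3%. Among CD8 T cells, Cxcr4 was found in 34.7% (31.7 to 37.7) in suffix 2 and 39.5% (34.9 to 44.3) in suffix 1. For Cxcr6, CD8 T cells had 200.5 CPM in suffix 2 and 119.5 CPM in suffix 1. CD4 T cells had 160 CPM (127 to 199) in suffix 2 and 219 CPM (188 to 253) in suffix 1, with intervals that overlapped. CD8 T cells made up 989 of the 1563 T cells of suffix 2 and 433 of the 921 of suffix 1.

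To compare receptors within T cells at 1 depth, 2420 T cells were thinned to 2000 UMIs and 86 shallower cells were left out. None of Ccr2, Ccr7, Cxcr3, Cxcr4 and Cxcr6 was found in 44.6% of them, 1 in 39.4%, 2 in 13.8% and 3 or more in few cells. Over all T cells, those with Ccr7 held Cxcr6 less often than those without. Cxcr6 had a UMI in 14.0% (8.48 to 21.2) of the 129 T cells with Ccr7 and in 25.6% (23.8 to 27.5) of the 2291 without. The share was also lower within suffix 1 (10.6% against 23.0%), suffix 2 (18.3% against 27.1%), CD8 T cells (16.2% against 27.7%) and CD4 T cells (16.7% against 29.3%), but in each of these the intervals overlapped. For Ccr2 the pooled contrast ran the other way, with Cxcr6 in 33.3% (26.9 to 40.3) of the 201 T cells with Ccr2 and in 24.2% (22.5 to 26.1) of those without. The latter contrast was seen within suffix 1 (40.3% against 20.5%), while in suffix 2 (29.1% against 26.5%), CD8 T cells (27.0% against 27.2%) and CD4 T cells (36.0% against 27.3%) the intervals overlapped.

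T cells with Ccr7 more often held S1pr1 and Tcf7, genes of recirculating lymphocytes, while Lef1 and Klf2 did not differ beyond counting error. S1pr1, the receptor for lymph node exit, was found in 22.5% (15.6 to 30.7) of T cells with Ccr7 and 8.38% (7.28 to 9.59) of those without. Tcf7, a transcription factor of naive and memory T cells, was found in 20.9% (14.3 to 29.0) against 12.6% (11.2 to 14.0). Several effector and residency genes ran lower in the same cells. Ccl5 was found in 58.1% against 83.0%, Nkg7 in 55.8% against 74.8%, Gzmk in 6.98% against 17.6%, Cd69 in 49.6% against 63.6%, and Itga1, an integrin of tissue-resident T cells, in 0 of 129 against 7.68%. Of 12 state genes, these 7 differed beyond counting error between T cells with and without Ccr7, and Lef1, Klf2, Itgae, Pdcd1 and Bhlhe40 did not. Such counts, here and for the other receptors and cells, cover listed genes only. They were not made over all genes, so they cannot be set against genes in general. Within suffix 1, 2 of the 12 differed (S1pr1 and Ccl5). Within suffix 2, 5 differed, S1pr1 and Ccl5 among them. S1pr1, Itga1, Ccl5 and Gzmk differed among CD8 T cells alone.

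T cells with Cxcr6 showed part of the opposite profile, in S1pr1, Itga1 and Nkg7, and also differed in Klf2 and Pdcd1, which had not differed with Ccr7. S1pr1 was found in 5.29% (3.65 to 7.39) of the 605 T cells with Cxcr6 and 10.4% (9.05 to 11.9) of the 1815 without, and Klf2, a factor that drives S1pr1, in 48.4% against 62.3%. Itga1 was found in 10.1% (7.80 to 12.8) against 6.34% (5.26 to 7.56), Pdcd1, the gene of an inhibitory receptor, in 11.6% against 7.05%, and Nkg7 in 78.5% against 72.2%. Here these 5 of 12 state genes differed beyond counting error, and Lef1, Tcf7, Itgae, Cd69, Ccl5, Gzmk and Bhlhe40 did not. Few genes differed in smaller sets of cells. The count was 1 within suffix 1 (Klf2), 2 within suffix 2 (S1pr1 and Nkg7), 2 in CD8 T cells (Itga1 and Nkg7) and 1 in CD4 T cells (Klf2), and Nkg7 in suffix 1 ran the other way (63.8% against 66.5%). T cells with Cxcr4 differed in 2 of the 12, Cd69 (71.9% against 60.6%) and Klf2 (66.8% against 56.9%), and both were higher with Cxcr4. Cd69 did so within suffix 1, within suffix 2 and in CD8 T cells, and Klf2 within suffix 2. T cells with Cxcr3 differed in Nkg7 (81.0% against 72.5%) and Bhlhe40 (38.0% against 45.9%), and T cells with Ccr2 in Lef1 (14.4% against 7.89%). For Cxcr3 none of the 12 genes differed within suffix 1, suffix 2, CD8 or CD4 T cells, and for Ccr2 Lef1 differed within suffix 2 alone of these.

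**Figure D4:**
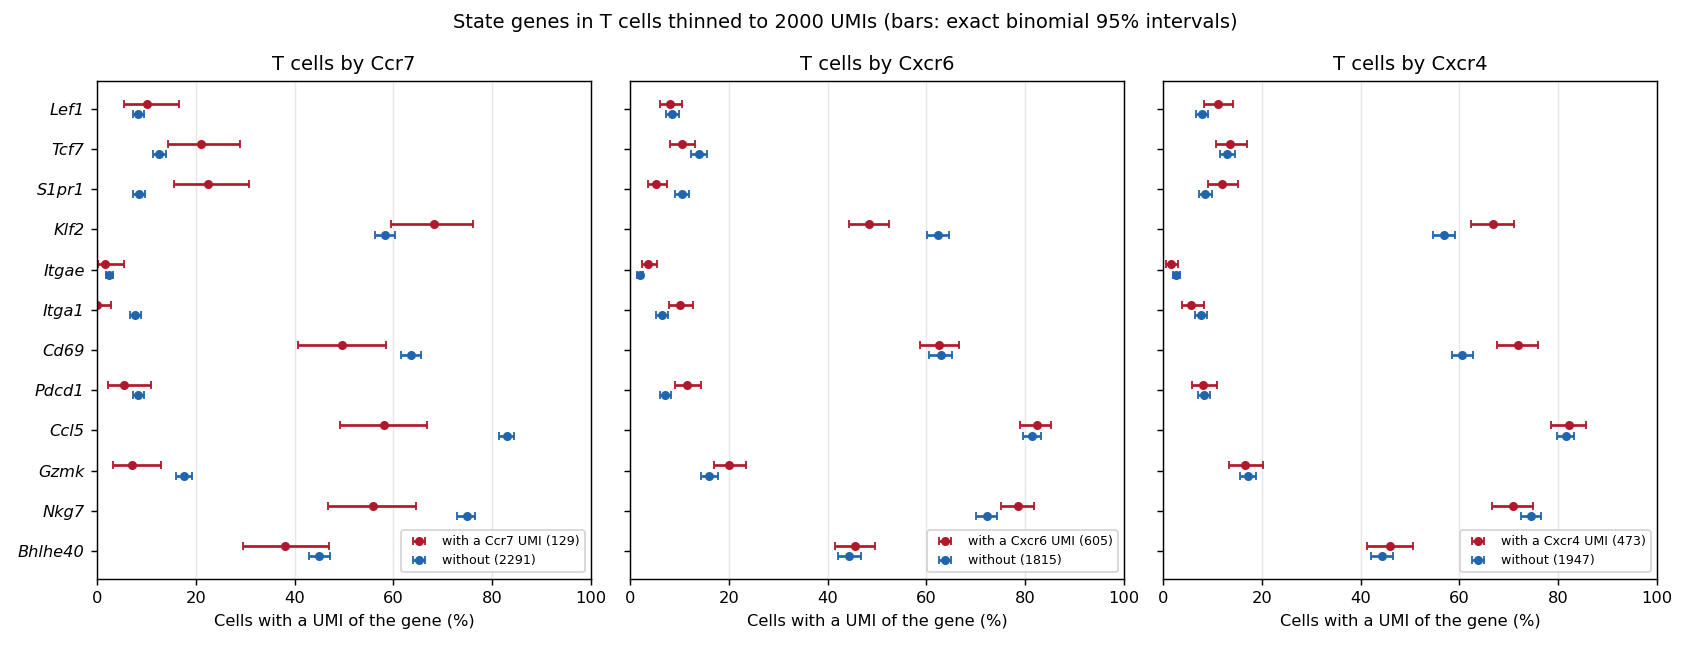
Share of T cells, each thinned to 2000 UMIs, with a UMI of 12 state genes (percent), split by a UMI of Ccr7, Cxcr6 or Cxcr4; red points are cells with the receptor, blue points cells without, and bars are exact binomial 95% intervals. With Ccr7, S1pr1 and Tcf7 are higher and Ccl5, Nkg7, Gzmk, Cd69 and Itga1 lower; with Cxcr6, S1pr1 is lower (5.29% against 10.4%).

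Microglia held 37.2% of all Cxcr4 UMIs through their number, although only 11.0% of them had one. The level was 21.1 CPM (19.4 to 22.8) in suffix 1, 33.6 CPM (32.1 to 35.2) in suffix 2 and 2.81 CPM (1.93 to 3.94) in suffix 3, and without suffix 2 the pooled level was 15.8 CPM. In suffix 3 the oligodendrocytes stood at 1.02 CPM (0.628 to 1.55), with a Cxcr4 UMI in 0.512% (0.298 to 0.818) of cells, below the microglia of that library, of which 1.52% (1.01 to 2.19) had one. The 1199 microglia with Cxcr4 were deeper than the 9702 without, with medians of 13374 and 6528 UMIs. Markers of T cells stood at 2.40 CPM in them against 2.63 CPM, and those of neutrophils at 51.2 CPM against 12.7 CPM. The T-cell values were held low by the gates, which left out C1q barcodes with at least 2 Cd3 UMIs. They therefore cannot show whether T-cell RNA was mixed in. The ratio of Cxcr4 to Cxcr6 UMIs was 88.5 in microglia and 0.680 in T cells, and that of Cxcr4 to Ccr1 was 7.22 in microglia and 0.648 in neutrophils.

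The C1q-gated cells with Cxcr4, called microglia here, differed from the others in known state genes. Whether all of them were microglia was not tested. In 9939 microglia thinned to 2000 UMIs, P2ry12, a receptor of resting microglia, was found in 20.4% (16.2 to 25.1) of the 338 with Cxcr4 and in 50.3% (49.3 to 51.3) of the 9601 without. Tmem119 (22.5% against 50.3%), Siglech (22.8% against 49.1%) and Cx3cr1 (58.3% against 79.2%) were lower as well. Several listed genes of phagocytic and lipid-handling macrophages were more frequent. Gpnmb was found in 32.5% (27.6 to 37.8) against 7.17% (6.66 to 7.70), Lgals3 in 45.3% against 15.0%, Spp1 in 79.6% against 52.0%, Fabp5 in 61.5% against 32.1% and Igf1 in 41.7% against 16.9%. Ms4a7, which border-associated and infiltrating macrophages express, was found in 14.8% (11.2 to 19.0) against 3.72% (3.35 to 4.12), and its part in the result was not tested. Mki67, a gene of dividing cells, did not differ beyond counting error (1.78% against 1.02%). Of 16 genes looked at by Cxcr4, 13 differed beyond counting error. Cst7, a gene of activated microglia, Vim, Ccrl2, Top2a and S100a9 were also among the 16. Their values are not given here, so the genes with values do not stand for the whole list. The 16 were chosen after the values were seen.

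**Figure D5:**
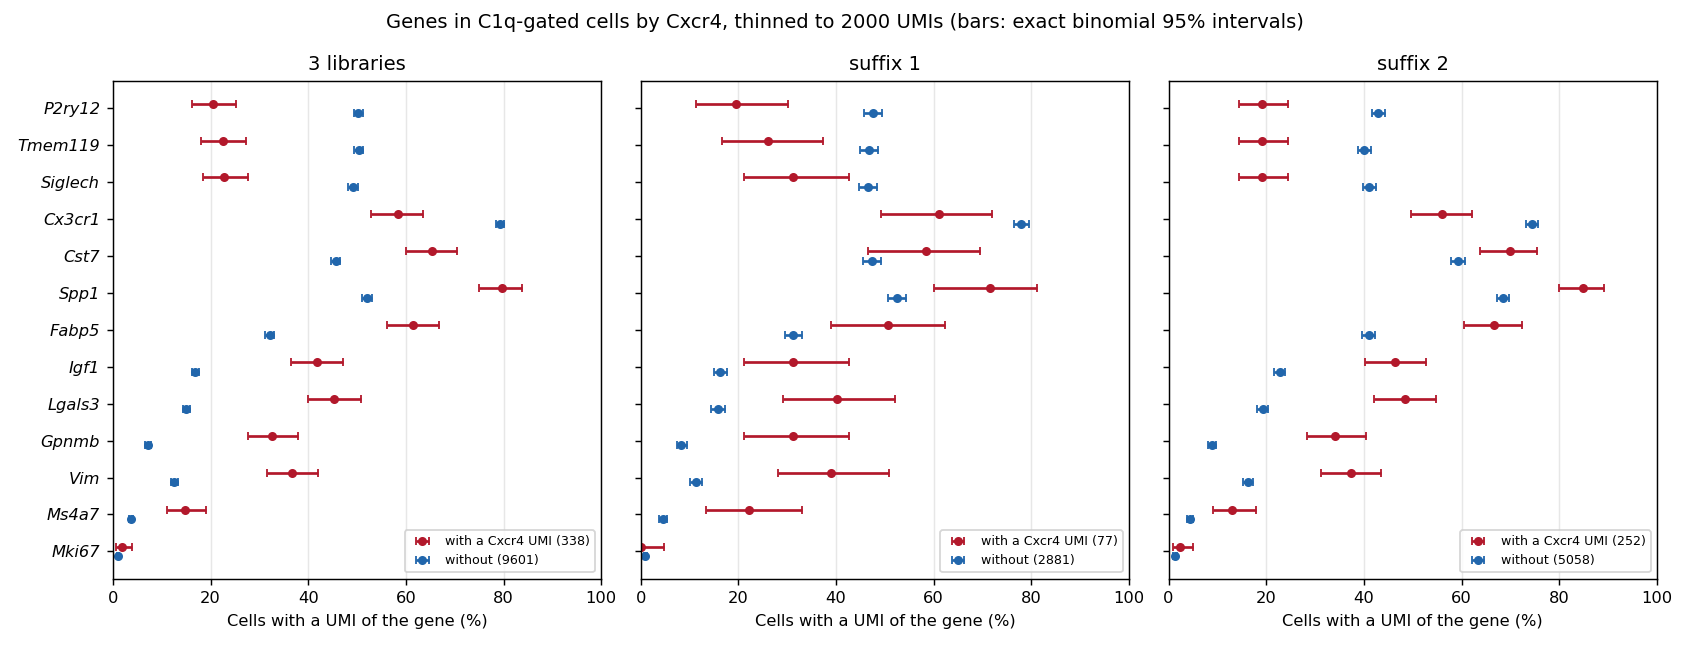
Share of C1q-gated cells, each thinned to 2000 UMIs, with a UMI of 13 genes (percent), split by a Cxcr4 UMI (red, with; blue, without), for the 3 libraries together and for suffixes 1 and 2; bars are exact binomial 95% intervals. P2ry12, Tmem119, Siglech and Cx3cr1 are lower and Spp1, Fabp5, Igf1, Lgals3, Gpnmb, Vim and Ms4a7 higher with Cxcr4 in each panel. Cst7 and Mki67 are drawn as well.

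The same directions were seen within libraries. P2ry12 was found in 19.5% against 47.6% in suffix 1 and in 19.0% against 43.0% in suffix 2, and Gpnmb in 31.2% against 8.33% and in 34.1% against 8.86%. Suffix 3 had too few microglia with Cxcr4 for a value of its own. Among the microglia with at least 1 UMI of P2ry12, Tmem119 or Sall1, 9509 cells, Cxcr4 stood at 21.5 CPM (20.5 to 22.5), against 25.8 CPM in all. Ccr1 in microglia went with other markers: S100a8 and S100a9 stood at 243 CPM in the 226 microglia with a Ccr1 UMI and at 12.8 CPM in those without, and their part in the result was not tested. Ccr7 was found in 228 microglia, and at 2000 UMIs P2ry12 was as frequent with it (50.7%) as without it (49.3%). T-cell markers, which the gates cap in microglia, stood at 5.22 CPM in those with Ccr7, from 13 UMIs, and at 2.52 CPM in those without. Their part in the result was not tested.

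The ligands were measured in the same cells, and the highest class is named among the 11 classes of at least 50 cells, which leaves out monocytes and B cells. For Ccr1, Ccl3 was highest in microglia (6402 CPM), Ccl5 in T cells (6627 CPM), Ccl6 in neutrophils (612 CPM) and Ccl9 in microglia (132 CPM), with the 35 monocytes at 161 CPM (120 to 211.5). For Ccr2, Ccl2 (1643 CPM), Ccl7 (985 CPM) and Ccl12 (1274 CPM) were highest in border-associated macrophages, with microglia at 1256 CPM for Ccl12. Border-associated macrophages thus held the highest levels of Ccl2 and Ccl7. For Ccl12 their interval (1234 to 1315) overlapped that of microglia (1249 to 1263). For Cxcr2, Cxcl2 (32450 CPM) and Cxcl3 (297 CPM) were highest in neutrophils themselves and Cxcl1 in endothelial cells (455 CPM), while Cxcl5 stayed under 1 CPM. For Cxcr3, Cxcl10 was highest in microglia (4570 CPM), and Cxcl9 stood at 25.5 CPM in dendritic cells and 22.7 CPM in microglia, while the 35 monocytes held 423 CPM (354 to 501), in 5 cells. For Cxcr4, Cxcl12 was highest in endothelial cells (1081 CPM), and for Cxcr6, Cxcl16 in dendritic cells (318 CPM) and border-associated macrophages (188 CPM). The Ccr7 ligands Ccl19 and Ccl21a reached no more than 1.94 and 1.25 CPM, both in endothelial cells. Of the 1040 endothelial cells, 1014 were of suffix 3, so their ligand levels are largely those of 1 library.

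Of 15 other chemokine receptors, 3 reached 50 CPM in an immune class and 12 did not. Of all 31053 genes, 6817 reached 50 CPM in some class of a different set. That set was the 11 classes of at least 50 cells, which include non-immune classes and leave out monocytes and B cells. The share of all genes over the immune classes was not counted, so the 3 receptors cannot be set against genes in general. Ccrl2, an atypical receptor that presents chemerin, stood at 3496 CPM in neutrophils and 750 CPM in microglia. Cx3cr1, the fractalkine receptor of microglia, stood at 1001 CPM in microglia and 446 CPM in border-associated macrophages. Cxcr5, the follicular homing receptor, stood at 95.1 CPM in B cells. Cxcr1, which lies 30.5 kb from Cxcr2, was found in 10.4% of neutrophils at 41.8 CPM.

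Genes with the most similar pattern were sought over 11 classes of at least 50 cells, among 6817 genes that reached 50 CPM in 1 of them, by Pearson r of log2(CPM + 10). This is a description over 11 pooled profiles that share their libraries. For Ccr1 they were Pirb (r = 0.990), Adam8 (0.983) and Gpr35 (0.983). For Ccr2 they were Itgb7 (0.985), Klrd1 (0.977) and Stat4 (0.962), and for Ccr7 Map4k1 (0.964), Dpp4 (0.955) and Ms4a4c (0.946), of which Ms4a4c is a gate marker of monocytes. For Cxcr3 they were Cxcr6 (0.986), Ifi214 (0.982) and Gstp3 (0.981), and for Cxcr6 Ctla4 (0.996), Lat (0.994) and Ifi214 (0.993). For Cxcr4 they were Il16 (0.972), Gm26740 (0.959) and 1600014C10Rik (0.951). For Cxcr2, whose level was near 0 outside 1 class, Lilra6, Mrgpra2b and Gm5150 had an r that rounded to 1. Only 2 of these 21 genes remained among the 3 most similar by Spearman rho at a pseudocount of 1.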

How the data were processed

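Single-cell suspensions of mouse brain were captured on the 10x Chromium platform with 3′ v3 reagents. Per the submitters' processing notes and the study's methods, the authors mapped reads to mm10 with Cell Ranger 3.1.0 (STAR) and aggregated the libraries, with down-sampling of reads where required, and the deposited matrix holds whole UMI counts per gene and barcode. Summed counts of the 3 libraries were 72498768, 105957232 and 69270514. The members, gates and gene lists were chosen with earlier results of these data known.

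Barcodes with at least 1000 UMIs and at most 30% mitochondrial counts were gated by raw marker UMIs. Barcodes that passed more than 1 gate were left out, and no other doublet removal was done. With 1 library per group and suffixes not tied to groups, no test was run and no replicate spread exists. CPM of summed counts carry exact Poisson 95% intervals and shares exact Clopper-Pearson 95% intervals, which cover counting error only. A count of 0 allows up to 3 counts. Cells were thinned without replacement to 1000 UMIs (classes, neutrophils) or 2000 UMIs (T cells, microglia), with a fixed seed. A library had a value of its own from 20 cells upward. Named genes were the 7 members, other chemokine receptors with at least 50 CPM in an immune class, listed ligands by their highest class of at least 50 cells, listed state genes, and the 3 genes most similar to each member. Exceptions are named as chosen after the values were seen. Some listed genes are not reported here. Positions came from GENCODE (GRCm38), and 99.6% of the matrix identifiers were found there. The counting intervals, the thinning, the recovery of fold changes and the T-cell gate were tested on simulated cells built from a pooled T-cell profile. Those cells did not cluster their UMIs as real cells can. Co-detection, the other gates and the likeness step were not tested in this way. Python 3.11.15, NumPy 2.4.6, SciPy 1.17.1 and pandas 2.3.3 were used. Alternatives were other UMI minimums (500, 2000), a mitochondrial limit of 10%, an upper limit at the mean + 2 SD, stricter gates, leaving out each library, thinning, and other likeness and detection limits.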

Additional observations from a re-analysis of the deposited data

Results flagged for a closer look

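Receptor UMIs were also found in barcodes outside every class, above the share that a count of 0 allows (0.0677% of the 4432 barcodes that passed more than 1 gate and 0.154% of the 1946 that passed none). In barcodes that passed more than 1 gate, a UMI was found in 9.66% for Cxcr4, 4.24% for Cxcr6, 3.23% for Cxcr3, 2.55% for Ccr2, 2.05% for Ccr1, 1.51% for Ccr7 and 0.970% for Cxcr2. In barcodes that passed no gate it was found in 8.99% for Cxcr4, 3.65% for Ccr2, 3.55% for Ccr1, 1.80% for Cxcr3, 1.75% for Cxcr6, 1.64% for Ccr7 and 1.23% for Cxcr2. The larger groups with more than 1 gate were dendritic cells with oligodendrocytes (1265 barcodes, through Fscn1), microglia with oligodendrocytes (916), dendritic cells with neuroblasts (360), oligodendrocytes with endothelial cells (217) and T cells with microglia (212).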

How the results depend on the processing

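Of 85 recomputed levels over 14 receptor and class pairs, without leaving out a library, 79 stayed within the counting interval of the value reported. The 85 include the dendritic gate without Fscn1, which by design could not change the level in most of the other classes. Of 42 levels recomputed with a library left out, 22 fell outside the counting interval. The upper limit on UMIs and genes gave 21.7 CPM for Cxcr4 in microglia, stricter gates gave 492 CPM for Cxcr4 in neutrophils, 890 CPM for Ccr7 in dendritic cells and 0 CPM for Ccr7 in monocytes, and, as alternatives chosen after seeing the data, dropping Fscn1 from the dendritic gate gave 454 CPM for Ccr7 in dendritic cells and requiring P2ry12, Tmem119 or Sall1 gave 21.5 CPM for Cxcr4 in microglia. Leaving out each library in turn gave these ranges in CPM: Ccr1 in neutrophils 474 to 997, Cxcr2 in neutrophils 322 to 564, Cxcr4 in neutrophils 251 to 676, Ccr2 in NK cells 112 to 117, Ccr2 in T cells 46.2 to 46.5, Ccr7 in T cells 45.8 to 64.0, Cxcr3 in T cells 73.3 to 93.0, Cxcr4 in T cells 101 to 129, Cxcr6 in T cells 146 to 190, Ccr7 in dendritic cells 414 to 813, Ccr7 in B cells 309 to 683, Ccr7 in monocytes 13.7 to 98.8, Ccr2 in monocytes 55.3 to 137 and Cxcr4 in microglia 15.8 to 29.1. Leaving out suffix 3, chosen after seeing the data, took the neutrophil pairs with intervals apart from 5 to 0. Thinning to 1000 UMIs lowered all 14 shares, to between 9.09% and 80% of the unthinned share. A detection limit of 5% gave 4 members in NK cells in place of 2, and a limit of 25% gave 0 in microglia in place of 1. Spearman rho at a pseudocount of 1 kept 2 of the 21 most similar genes. The causes of these shifts were not tested. No paired analysis was possible because the groups have 1 library each and the barcode suffixes are not tied to them. Classes under 100 cells (monocytes, dendritic cells and B cells) and the 22 T cells of suffix 3 give wide intervals.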

Other observations

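NK cells and border-associated macrophages also differed between libraries. Cxcr6 in NK cells stood at 13.4 CPM (8.29 to 20.5) in the 224 cells of suffix 1 and 50.5 CPM (32.7 to 74.6) in the 96 of suffix 2. Ccr1 in border-associated macrophages stood at 13.5 CPM (7.16 to 23.0), 16.4 CPM (9.56 to 26.3) and 62.1 CPM (47.8 to 79.3) in suffixes 1, 2 and 3, where the share of cells with a UMI was 13.3%, 4.41% and 14.6%. Cxcr4 in the same macrophages was lowest in suffix 3, at 29.1 CPM (19.6 to 41.5), against 51.8 and 63.7 CPM in suffixes 1 and 2. The intervals of suffixes 1 and 3 overlapped, while the level without suffix 3 was 57.95 CPM (47.9 to 69.5). Of the 4 regulatory T cells, 2 held Ccr7 and none held Cxcr6. Whether any of these differences follows a condition cannot be told apart from the library.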
